A study of Mus musculus with 8 samples.

Results

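Notch is a signalling pathway between touching cells. Ligands of the Delta-like and Jagged families on one cell bind Notch receptors on its neighbour, proteases then free the receptor's inner part, and that part joins the DNA-binding protein Rbpj to switch on target genes. In the gut lining, Notch activity is known to keep crypt cells dividing and absorptive, while cells that escape it turn on Atoh1 and become secretory. In blood vessels the same pathway guides sprouting and the muscle coat.

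The 10 genes described here were the ligands Dll1, Dll4, Jag1 and Jag2, the receptors Notch1, Notch2 and Notch3, and the target genes Hes1, Hey1 and Nrarp. They were taken as every probe that the array files name by one of these symbols, which gave 10 of 27745 gene names and 14 of 41174 probes on a one-colour Agilent mouse array. Of these, 13 were bright enough to be tested, among 31871 tested probes in all. The rule uses names only and no measured value, but the set of genes was chosen with earlier results of these data known.

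RNA from 4 colon adenomas labelled Tcf4Het ApcHet was compared with RNA from 4 samples of normal colon labelled TCF4WT ApcHet, 1 array per sample, all from adult C57BL/6 mice. The protocol writes the Apc allele as ApcMin, a truncating mutation carried by every mouse of both groups, and names littermates and the last 2.5 cm of colon as the source. Tcf4 is the older name of Tcf7l2, the main partner of beta-catenin at Wnt target genes in this tissue. All tumors carried a mutant copy of it and no normal did, so tumor state and Tcf4 genotype cannot be told apart. The sources used here do not give the sex of the mice or how tumor was separated from surrounding wall. The design text calls the samples independent.

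The arrays hold whole tissue, in which fewer cells of a type and less RNA per cell cannot be told apart. Levels are the authors' quantile-normalised log2 values, and 1 unit is a 2-fold step in spot signal. Of the 8 columns of that table, 4 matched a scanner file, and the other 4 matched none. Only tumor 1 matched the file of its own sample. The columns of normal 1 and normal 2 matched files of other normals, and the column of tumor 2 matched the file labelled normal 4. For that array the table says tumor and the file says normal, so every difference here rests on the table's labels. Without tumor 2, 0 of 13 Notch probes were called by limma, beside 1.08% of all tested probes (13.4% with all samples), and 5 of the 13 had an unadjusted p under 0.05. The normals differed among themselves. The sample labelled normal 3 was closer to every tumor than to any other normal. Over tested probes its Pearson correlation was 0.946 to 0.967 with tumors, but 0.857 to 0.936 with normals 1, 2 and 4. Normal 1 had 0.934 to 0.936 with the other normals and 0.918 to 0.951 with tumors. Only normals 2 and 4 were as alike as tumors were, at 0.986. Calls among the Notch genes are given with and without normal 3. Tcf7l2 itself had 12.33 to 13.20 in tumors and 14.19 to 14.85 in normals, with no overlap. Of 8 epithelial markers none was below the detection limit of 5.59 in any sample. Of these, 2 fell (Cdh17 and Krt20), also with same-numbered samples as a block, and without normal 3 there were 5 lower and 1 higher. Their mean level was 16.95 to 17.24 in tumors and 17.29 to 17.72 in normals. Of 5 measured distal colon markers, 3 fell (Car4, Hoxb13 and Aqp8), 2 with the block, which ended the call of Hoxb13 (adjusted p = 0.0528), and 4 without normal 3. Over all genes, by 1 probe each, 13.8% were called with all samples, 10.8% with the block and 51.5% without normal 3. The distal colon markers' mean level was 14.69 to 15.86 in tumors against 16.48 to 16.86 in normals.

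Among the 13 tested probes, 1 rose in tumors (Hey1) and 3 fell (Nrarp, Hes1 and Dll1) by limma with Benjamini-Hochberg adjustment over all tested probes. This is 30.8% of the Notch probes, beside 13.4% of all probes tested. By direction the shares of all probes were 5.62% higher and 7.83% lower. The remaining 9 probes did not pass. The median difference over the 13 probes was 0.30, beside 0.05 over all tested probes, with 7 differences above 0 and 6 below. The target genes therefore did not move one way: Hey1 was higher in tumors, and Hes1 and Nrarp were lower.

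**Figure D1:**
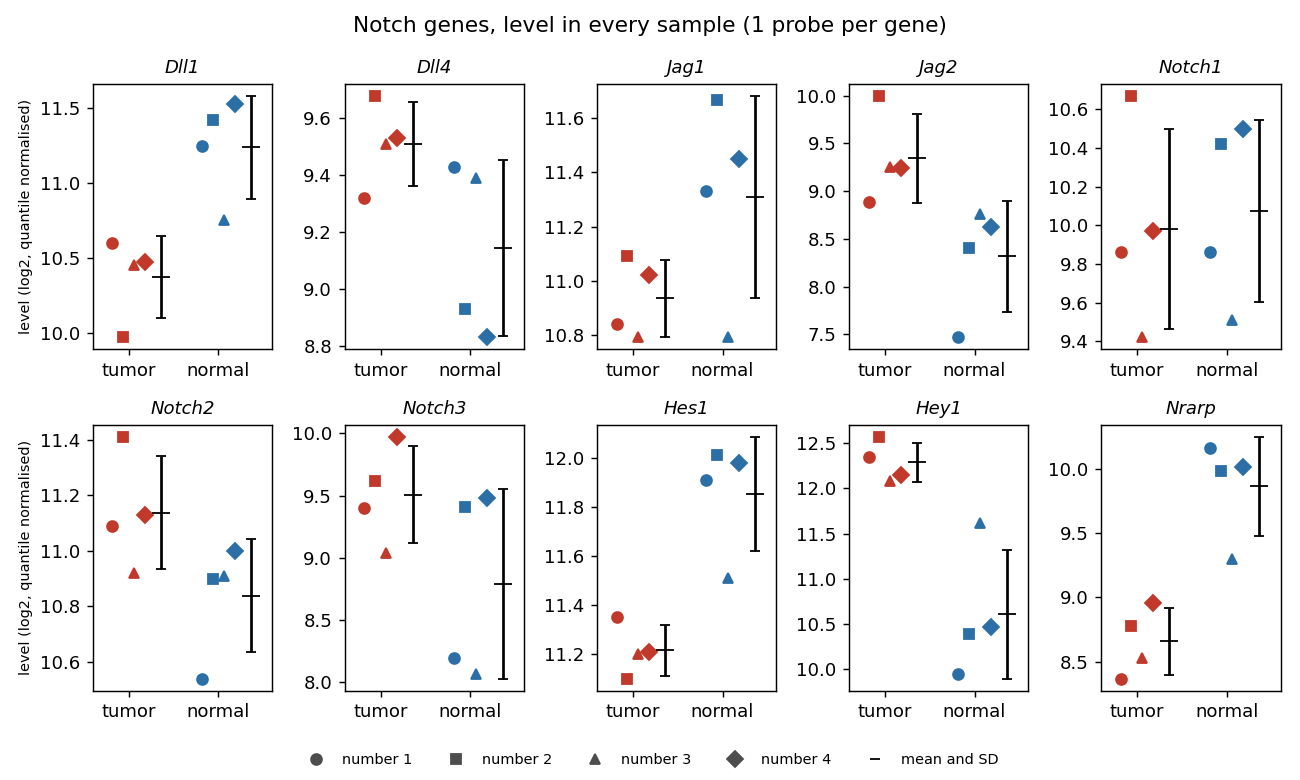
Level of each Notch gene in every sample, on the authors' log2 scale, from the brightest tested probe of each gene. Red symbols are tumors, blue symbols are normals, the symbol shape is the sample number, and bars give the mean and SD over 4 samples. For Hey1 the tumors lay at 12.08 to 12.57, above all normals, and for Nrarp at 8.37 to 8.96, below all normals. The axes do not start at 0 and differ between genes, so heights cannot be compared across panels.

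The promoters below are shown because Nrarp and Dll1 are called members with a sequence in the promoter table, and both fell. The table is RefSeq's on build GRCm38.p6, and each stretch is the 250 bases before a gene start, 5′ to 3′ on the gene's strand. Nrarp lies at chr2:25180508-25180757 on the plus strand. The Dll1 stretch lies at chr17:15375824-15376073 on the minus strand, and Dll1 has a second listed start whose stretch, which lacks the octamer described next, is not printed. Capitals mark the octamer ATGCAAAT or its reverse complement ATTTGCAT.
Nrarp: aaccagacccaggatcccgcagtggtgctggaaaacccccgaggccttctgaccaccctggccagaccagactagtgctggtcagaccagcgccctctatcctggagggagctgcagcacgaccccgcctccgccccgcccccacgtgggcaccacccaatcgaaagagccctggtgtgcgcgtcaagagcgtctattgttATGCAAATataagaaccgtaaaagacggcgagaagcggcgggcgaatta
Dll1: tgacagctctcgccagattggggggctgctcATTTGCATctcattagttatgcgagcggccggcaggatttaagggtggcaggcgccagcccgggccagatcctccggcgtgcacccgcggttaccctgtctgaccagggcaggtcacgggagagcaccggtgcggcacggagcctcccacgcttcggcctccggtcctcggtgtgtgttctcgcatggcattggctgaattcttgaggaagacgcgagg

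The octamer was looked for after these sequences had been read. Its presence in both was thus known before counting, and its share among the Notch genes is not a test. On either strand it was present in 526 of 32851 listed promoters (1.6%), and in 2 of the 9 promoters listed for 8 of the 10 Notch genes, those of Dll1 and Nrarp. The core letters bound by Rbpj, TGGGAA on either strand, stood in 21.6% of all listed promoters and in 0 of those 9. A match of letters in such a window is a description and shows no binding.

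Hey1, a transcriptional repressor of the hairy and enhancer of split family that Notch turns on, was the Notch gene that rose. Its levels were 12.35, 12.57, 12.08 and 12.15 in tumors 1 to 4, against 9.95, 10.39, 11.62 and 10.47 in normals 1 to 4. Every tumor was above every normal, and normal 3 lay between the tumors and the other normals. The mean was 12.29 ± 0.22 in tumors and 10.61 ± 0.71 in normals (SD, n = 4 each). The difference of 1.68 ± 0.35 (SE), or 3.20-fold, was called by limma (adjusted p = 0.0249). With same-numbered tumor and normal as a block the adjusted p was 0.0510. Without normal 3 the difference was 2.02 and the adjusted p 0.00117. Leaving out any 1 of the other 7 samples ended the call, with differences of 1.46 to 2.02 and adjusted p-values up to 0.0763 over the 8 fits that leave out a sample. The probe lies at chr3:8646505-8646564 (mm8).

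Hey1 is also known from blood vessels, so endothelial markers are given beside it. Of 8 such markers, 1 rose, the junction protein gene Cdh5 (1.14 ± 0.21, limma adjusted p = 0.0216). With the block 2 were called higher (Cdh5 and Esam). Without normal 3 there were 3 higher (Cdh5, Esam and Tek) and 1 lower (Pecam1, -0.96). With all samples Pecam1 had -0.44, and Kdr, Tie1 and Cldn5 had 0.20, 0.00 and -0.04, none of them called. The mean level of the 8 was 9.99 to 10.44 in tumors and 9.13 to 10.02 in normals. Normal 3 had the lowest endothelial mean of all samples (9.13) and the highest Hey1 level of the normals. Of 8 pericyte and smooth muscle markers, 0 passed in limma with all samples or with the block and 2 fell without normal 3, and their mean level was 13.56 to 14.47 in tumors and 12.78 to 15.00 in normals. The part of these cell types in the Hey1 difference was not tested. Over the 8 columns, the genes whose pattern was most like that of Hey1 were Prox1 (Pearson r = 0.997), Nkd1 (0.997) and Gpc1 (0.996), with log2 differences of 3.65, 3.61 and 2.76. These correlations describe 8 samples in separate groups and carry no test.

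Nrarp, a small ankyrin repeat protein that Notch induces and that damps Notch signalling, fell. Its levels were 8.37, 8.78, 8.53 and 8.96 in tumors 1 to 4, against 10.16, 9.98, 9.30 and 10.01 in normals 1 to 4. Every tumor was below every normal, and normal 3 was again the normal nearest to the tumors. The mean was 8.66 ± 0.26 in tumors and 9.86 ± 0.38 in normals (SD, n = 4 each). The difference was -1.20 ± 0.23 (SE), 2.30-fold lower in tumors, and was called by limma (adjusted p = 0.0224). Nrarp was the only Notch probe still called with the pairs as a block (adjusted p = 0.0396). Without normal 3 the difference was -1.39, with an adjusted p of 0.0027. The call was also kept without tumor 4 and lost without any 1 of the other 6 samples, with differences of -1.39 to -1.10 and adjusted p-values up to 0.0752. The probe lies at chr2:25004527-25004586 (mm8), in a gene whose promoter is printed above.

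Hes1, the repressor through which Notch keeps Atoh1 off in gut crypts, fell by a smaller step. Its levels were 11.35, 11.10, 11.20 and 11.21 in tumors 1 to 4, against 11.91, 12.01, 11.51 and 11.98 in normals 1 to 4. The groups did not overlap, although normal 3 and tumor 1 were close. The mean was 11.22 ± 0.10 in tumors and 11.85 ± 0.23 in normals (SD, n = 4 each). The difference was -0.64 ± 0.16 (SE), 1.56-fold lower in tumors, and was called by limma (adjusted p = 0.0381). The adjusted p was 0.0648 with the block and 0.00563 without normal 3, where the difference was -0.75. Leaving out any 1 of the other 7 samples ended the call (differences of -0.75 to -0.59 over the 8 fits, adjusted p-values up to 0.109). The probe's listed position is chr16:29985644-29985939 (mm8).

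Of the ligands, Dll1 passed the test. It is a Notch ligand made by secretory progenitors in gut crypts. Its levels were 10.60, 9.97, 10.45 and 10.47 in tumors 1 to 4, against 11.25, 11.42, 10.75 and 11.53 in normals 1 to 4. All tumors were lower than all normals, with normal 3 the lowest of its group. The mean was 10.38 ± 0.28 in tumors and 11.24 ± 0.35 in normals (SD, n = 4 each). The difference was -0.86 ± 0.22 (SE), 1.82-fold lower in tumors, and was called by limma (adjusted p = 0.0440). With the block the adjusted p was 0.0720. Without normal 3 it was 0.00742, with a difference of -1.02. No call remained without any 1 of the other 7 samples (differences of -1.02 to -0.73 over the 8 fits, adjusted p-values up to 0.12). The probe lies at chr17:15072622-15072681 (mm8).

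Of the pairs of called genes, Dll1 and Hes1 ran together across samples, also within groups. Their levels correlated at 0.97 over the 8 columns and at 0.91 as deviations from each group's mean, and these deviations correlated at 0.85 without normal 3. This was not particular to that pair: Jag2 and Notch2, neither called, had 0.92, 0.87 and 0.89 in the same order. For the other pairs of called genes the values within groups moved by over 0.5 when normal 3 was left out, a setting chosen after seeing the data. Hey1 and Hes1 had -0.80 as deviations with normal 3 and 0.08 without it, and Hey1 and Nrarp -0.78 and -0.19. Hes1 and Nrarp had 0.54 with it and -0.70 without it, Dll1 and Nrarp 0.40 and -0.48, and Dll1 and Hey1 -0.72 and -0.18. These are Pearson values over 8 or 7 samples that share 1 normalisation, and they carry no test. The genes most like Dll1 over the 8 columns were Fmo1 (r = 0.996), Casp1 (0.996) and Dram2 (0.995). Those most like Hes1 were Sacm1l (0.998), Ccni (0.993) and Ugt2b34 (0.992), and those most like Nrarp were Sclt1 (0.991) and Nars2 (0.990).

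Jag2, a Jagged-family ligand, did not overlap between groups but missed the threshold. Its levels were 8.89, 10.001, 9.25 and 9.24 in tumors 1 to 4, against 7.47, 8.41, 8.76 and 8.63 in normals 1 to 4. The lowest tumor, tumor 1, was close to the highest normal, normal 3. The difference was 1.03 ± 0.35 (SE), with a 95% confidence interval of 0.22 to 1.83 and a limma adjusted p of 0.0890. It was 0.0623 with the block and 0.0310 without normal 3, where the difference was 1.17. In normal 1 the scanner flag of the matching file put this probe not well above background, so its low value there is uncertain. The probe lies at chr12:113356484-113356543 (mm8).

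**Figure D2:**
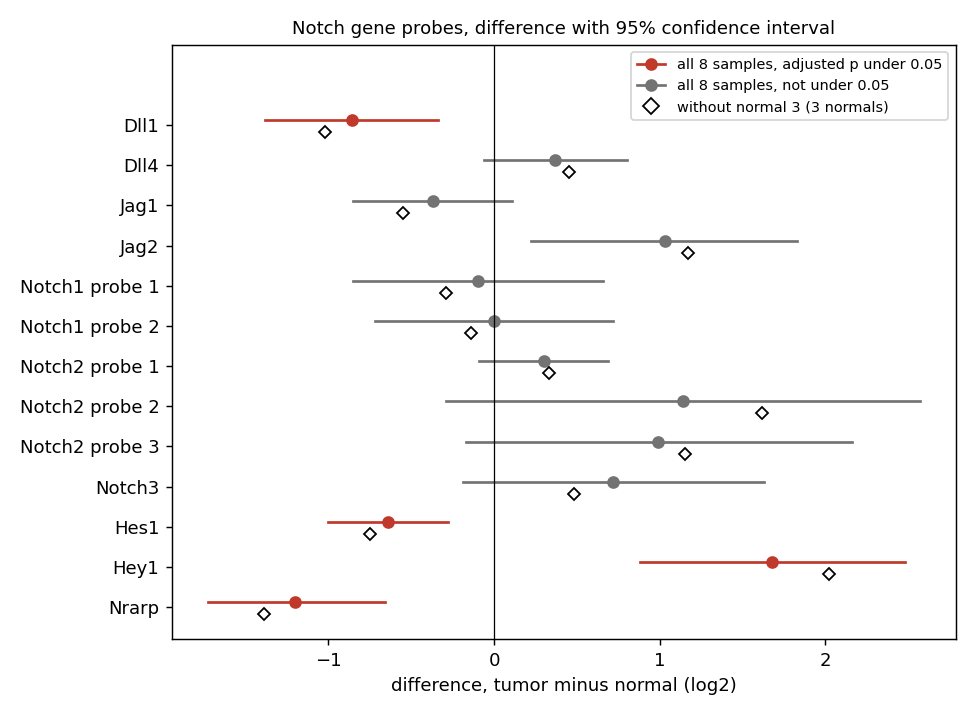
Difference, tumor minus normal, of the 13 tested Notch probes on the log2 scale, with 95% confidence intervals from limma (red, adjusted p under 0.05; grey, not). Open diamonds give the difference without normal 3. Hey1 lies furthest to the right of 0 among the red points, at 1.68, and Nrarp furthest to the left, at -1.20; the diamonds lie further from 0 than the filled points except for Notch3.

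Counted over the 13 probes, groups did not overlap for 5 (Hey1, Jag2, Hes1, Dll1 and Nrarp), beside 22.8% of all tested probes. Normal 3 lay strictly between the other normals and the tumors for 5 of the 13, against 14.1% of all tested probes. Without normal 3, 7 of the 13 were called (53.8%): the 4 above, Jag2, the brighter Jag1 probe and 1 Notch2 probe. In that fit 51.7% of all tested probes were called, so this share was near the background. With the pairs as a block, 1 of the 13 was called, beside 11.3% of all tested probes.

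Same-numbered samples were also set against each other. For Hey1 the pair differences were 2.40, 2.19, 0.46 and 1.68 in pairs 1 to 4, for Jag2 1.42, 1.59, 0.49 and 0.61, and for Nrarp -1.78, -1.20, -0.77 and -1.04. For Hes1 they were -0.56, -0.91, -0.31 and -0.78, and for Dll1 -0.64, -1.45, -0.29 and -1.06. For each of these 5 genes all 4 pairs had the same sign and pair 3 the smallest step. The shared sign was fixed in advance, since these genes were picked for groups that do not overlap. In each of them normal 3 was the normal nearest to the tumors, which favours a small step in pair 3. Neither is therefore separate support for a difference. Among columns that match a scanner file, tumor 1 and normal 1 lie on slide 1 and tumor 2 and normal 2 on slide 2, so the first and second pair differences are within-slide values. The slides of the other samples are not known.

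**Figure D3:**
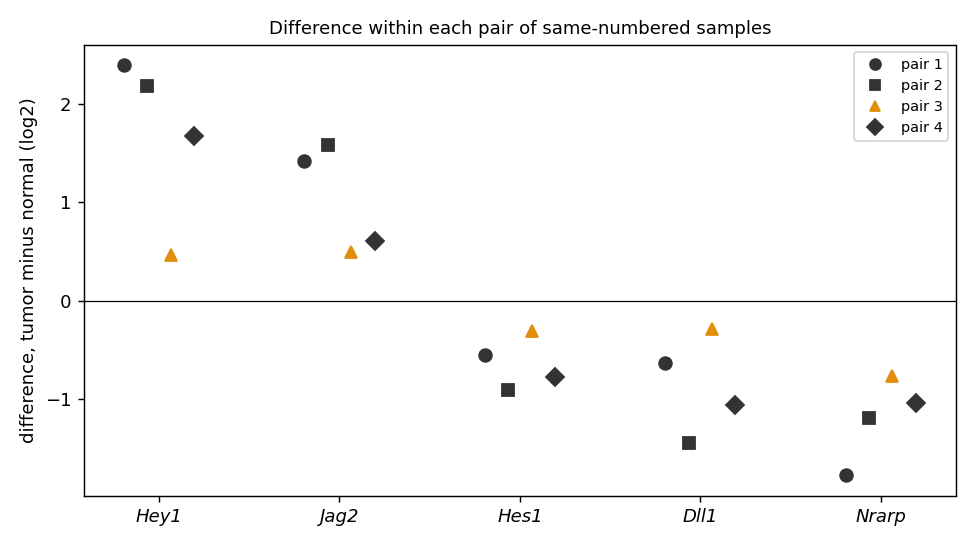
Difference, tumor minus normal, on the log2 scale within each pair of same-numbered samples, for the 5 Notch genes whose groups did not overlap. Symbols are pairs 1 to 4 and pair 3, which holds normal 3, is orange; it is nearest to 0 for every gene, for example 0.46 for Hey1 against 1.68 to 2.40 in the other pairs.

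Dll4, the ligand that guides vessel sprouting and also acts in gut stem cells, did not pass. Its levels were 9.32, 9.68, 9.51 and 9.53 in tumors 1 to 4, against 9.43, 8.93, 9.39 and 8.83 in normals 1 to 4. The groups overlapped through tumor 1, normal 1 and normal 3. The difference was 0.37 (95% confidence interval -0.06 to 0.80, limma adjusted p = 0.197; 0.45 and 0.0817 without normal 3). The probe lies at chr2:119026484-119026543 (mm8).

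Jag1, a ligand of epithelium, vessel and muscle, was read by 2 probes. The brighter, at chr2:136773138-136773197 (mm8), had 10.84, 11.09, 10.79 and 11.02 in tumors 1 to 4, against 11.33, 11.67, 10.79 and 11.45 in normals 1 to 4. Normal 3 was level with tumor 3, and the other normals lay above all tumors. The difference was -0.37 (95% confidence interval -0.85 to 0.11, limma adjusted p = 0.216), and -0.55 with an adjusted p of 0.0229 without normal 3. The dimmer probe, at chr2:136774647-136774706, was at or above the detection limit in 0 of 4 tumors and 2 of 4 normals (6.69 in normal 2 and 5.91 in normal 4). It was not tested, and since its mean in normals (4.80) is itself under the limit no fold is given.

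None of the 3 receptors passed by any probe with all samples. Notch1, the main receptor of crypt stem cells together with Notch2, had 9.86, 10.67, 9.42 and 9.97 in tumors 1 to 4, against 9.86, 10.42, 9.51 and 10.50 in normals 1 to 4. The ranges lay over each other, and sample 3 was the lowest in both groups. The difference was -0.10 (95% confidence interval -0.85 to 0.66, limma adjusted p = 0.830), an interval that leaves room for a change of either sign, and -0.29 without normal 3 (adjusted p = 0.468). The targets of the first and second Notch1 probes adjoin, at chr2:26281261-26281319 and chr2:26281319-26281378 (mm8). The second probe followed the first at r = 0.95. It gave -0.00 (-0.72 to 0.72), and -0.14 without normal 3 (limma adjusted p = 0.741).

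Notch2 was read by 3 probes, of which 1 did not follow the others. The brightest, at chr3:98235396-98235455 (mm8), had 11.09, 11.41, 10.92 and 11.13 in tumors 1 to 4, against 10.54, 10.90, 10.91 and 11.00 in normals 1 to 4. Its difference was 0.30 (95% confidence interval -0.09 to 0.69, limma adjusted p = 0.216). The groups overlapped at tumor 3 and normal 4. The probe at chr3:98234325-98234384 followed it at r = 0.78 and gave 0.99 (-0.17 to 2.16, adjusted p = 0.195). Its value in normal 1, 5.27, was below the detection limit. The probe at chr3:98232687-98232746 gave 1.14 (-0.29 to 2.57, adjusted p = 0.21), with 9.39, 8.41, 9.07 and 8.53 in tumors 1 to 4, against 8.43, 6.41, 9.17 and 6.84 in normals 1 to 4. It was low in normals 2 and 4 alone, correlated at 0.09 and 0.03 with the other Notch2 probes, and was called without normal 3 (1.62, adjusted p = 0.0319). The first and second probes gave 0.33 and 1.15 without normal 3 (adjusted p = 0.168 and 0.112). All 3 differences were above 0 and differed in size.

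Notch3, the receptor of pericytes and vascular muscle, had 9.40, 9.62, 9.04 and 9.97 in tumors 1 to 4, against 8.20, 9.41, 8.07 and 9.48 in normals 1 to 4. Normals 1 and 3 were low, and normals 2 and 4 lay among the tumors. The difference was 0.72 (95% confidence interval -0.19 to 1.63, limma adjusted p = 0.212), and 0.48 without normal 3 (adjusted p = 0.306). The probe lies at chr17:31849609-31849668 (mm8). The pericyte and smooth muscle mean of normal 3, 12.78, was the lowest of all samples. That of the other normals was 13.91 to 15.00 and that of tumors 13.56 to 14.47. The part of these cells in the Notch3 levels was not tested.

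Beyond these 10 genes, 51 other genes of the pathway were listed by role, and 49 had a tested probe (the brightest of each gene). Of the 49, 3 rose and 2 fell, which is 10.2% of the list, beside 13.8% of all 21638 genes taken the same way (6.64% higher and 7.14% lower). With the block, 2 rose and 2 fell (8.16%, against 10.8% of all genes). Without normal 3, 19 rose and 6 fell (51.0%, against 51.5%). Without tumor 2, the array with the disputed label, 0 of the 49 were called, beside 1.08% of all tested probes. The median difference was 0.14.

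The genes that rose were Neurl1a, Hes6 and Ccnd1. Neurl1a, a ubiquitin ligase that promotes ligand uptake, had 11.67, 12.31, 11.63 and 11.67 in tumors 1 to 4, against 9.82, 10.09, 10.84 and 10.70 in normals 1 to 4. Its difference was 1.46 ± 0.28 (SE, limma adjusted p = 0.0223; 0.0465 with the block). Hes6, a family member that opposes Hes1, had 16.56, 16.48, 16.36 and 16.38 in tumors 1 to 4, against 14.89, 14.22, 15.96 and 14.10 in normals 1 to 4. It rose by 1.65 ± 0.39 (adjusted p = 0.0354; 0.0534 with the block). Ccnd1, which encodes cyclin D1 and is also a Wnt target, rose by 1.14 ± 0.24 (adjusted p = 0.0277; 0.0482 with the block). In all 3 the groups did not overlap and normal 3 was the normal nearest to the tumors. Over the 8 fits that leave out a sample, the call of Neurl1a was kept in 2 (limma adjusted p up to 0.0711). Those of Hes6 and Ccnd1 were kept in 1 each, without normal 3 (up to 0.0965 and 0.0828).

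The genes that fell were Numb and Atoh1. Numb, an adaptor that removes Notch from the membrane, had 10.46, 10.60, 10.33 and 10.73 in tumors 1 to 4, against 11.50, 11.82, 11.06 and 11.80 in normals 1 to 4. It fell by 1.01 (SE 0.21, limma adjusted p = 0.0244; 0.0344 with the block). The call was kept in 2 of the 8 fits that leave out a sample (adjusted p up to 0.0812). The groups did not overlap.

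Atoh1, the secretory lineage factor that Hes1 represses, had 8.39, 8.05, 8.08 and 9.06 in tumors 1 to 4, against 10.85, 10.74, 8.79 and 10.64 in normals 1 to 4. The groups overlapped because normal 3 was below tumor 4. It fell by 1.86 (SE 0.49, limma adjusted p = 0.0460; 0.0463 with the block), and the difference was -2.35 without normal 3. That was the only 1 of the 8 fits leaving out a sample that kept the call (adjusted p up to 0.127). Atoh1 and its repressor Hes1 were thus both lower in tumors. Of 6 goblet cell markers, the products of that lineage, 0 passed in limma with all samples and 1 fell without normal 3 (Muc2), and their mean level was 16.41 to 17.46 in tumors and 16.72 to 17.48 in normals. Neurog3, the endocrine lineage factor, did not pass with all samples (0.82 ± 0.42, adjusted p = 0.199) and was called without normal 3 (1.19, adjusted p = 0.0172).

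By role, the calls with all samples are given here, beside the 13.8% of all genes called in that fit. Of 8 tested receptor-turnover genes 1 was called, of 10 genes listed as further targets 2, and of 4 ligand-uptake genes 1. The 2 were Ccnd1 and Hes6, the latter being the family member said above to oppose Hes1. None of the 8 receptor-processing genes counted here, of 5 genes that put sugars on Notch, of 8 nuclear partners, of 3 other ligands or the receptor Notch4 was called by limma with all samples. Without normal 3, 51.5% of all genes were called. The shares were then 87.5% for receptor turnover, 80.0% for sugar addition, 66.7% for other ligands and 60.0% for further targets. They were 25.0% for nuclear partners and for ligand uptake, and 12.5% for receptor processing, and Notch4 was not called. Rbpj, the DNA-binding partner of Notch, had 11.59, 11.86, 11.68 and 11.72 in tumors 1 to 4, against 11.43, 11.62, 11.28 and 11.59 in normals 1 to 4, a difference of 0.23 ± 0.14 (adjusted p = 0.236). Aph1c and Olfm4 were too dim to be tested.

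**Figure D4:**
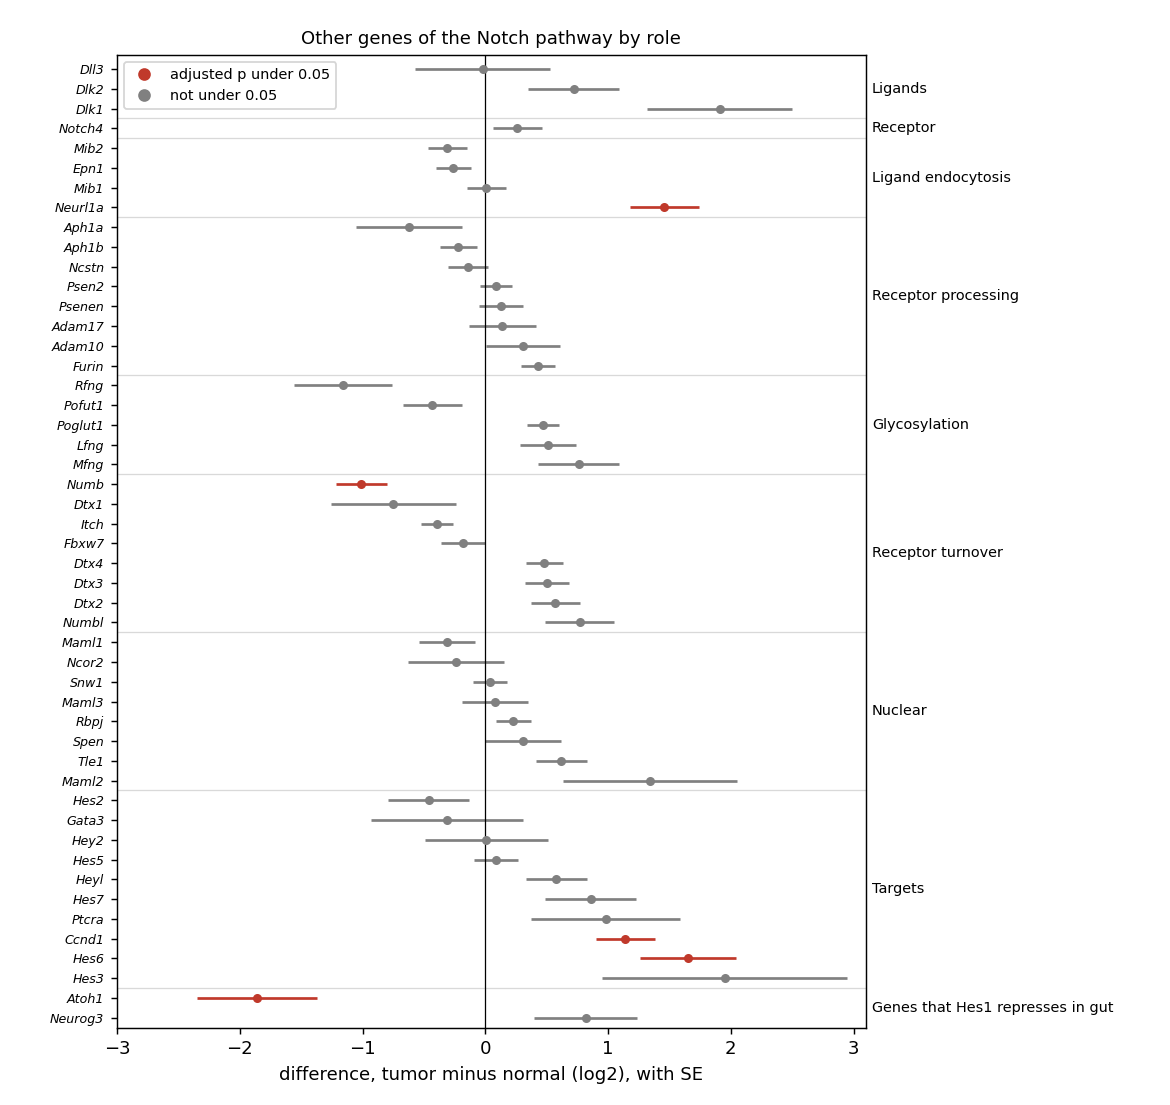
Difference, tumor minus normal, on the log2 scale with its SE, for 49 other genes of the Notch pathway grouped by role, from the brightest tested probe of each. Red points are the 5 genes with a limma adjusted p under 0.05, namely Neurl1a, Hes6 and Ccnd1 above 0 and Numb and Atoh1 below 0; grey points did not pass, and wide bars such as those of Hes3 and Maml2 come with low values in normals 2 and 4.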

How the data were processed

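Total RNA was labelled with Cy3 and hybridised to Agilent one-colour arrays (design 014868, probe positions on mm8 per the file headers). The deposited table is in log2: columns that match a scanner file rose by 0.891 to 1.057 per log2 unit of intensity. It was quantile-normalised by the authors, since every column has the median 8.51 and the 75th percentile 11.40. The scanner intensity files were background-subtracted and detrended with Feature Extraction 9.5.1.1, per the file headers, while the submitters' processing notes name 10.1.1.1. The 0 or 1 flags other than intensity in those deposited files were used to mark dim and uneven spots. Only 4 columns matched a file (Spearman 1.0, the same empty cells), while the others reached at most 0.9889. The table was therefore used as labelled.

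Probes at or above 5.59 in at least 4 of 8 columns were kept. That limit is the median, over the matched columns, of the 95th percentile of probes flagged as not well above background (4.503 to 7.703). The test was limma's (version 3.58.1, R 4.3.3; lmFit, eBayes, 2-sided) over 31871 probes, with Benjamini-Hochberg adjustment and a threshold of 0.05. The number of arrays, 4 per group, limits the precision. No label says that a number marks a pair, so the block was an alternative fit only. Over probes, deviations from group means correlated at 0.227 to 0.565 for same-numbered samples and -0.514 to 0.392 for other combinations. Tumors 2 and 3 had their highest value with the same-numbered normal. Tumor 1 had 0.313 with normal 3 against 0.227 with normal 1. Tumor 4 had 0.392 with normal 2 against 0.381 with normal 4. These values do not settle the pairing. The code was tested on simulated data. Symbols for pathway and marker lists came from RefSeq genes of GRCm38.p6, which named 33102 of 41174 probes. Every Notch probe is accounted for, and of the pathway list every called gene was named, apart from items that are not reported here. Members and lists were chosen with earlier results of these data known. Other settings tried are the filter, 1 probe or a mean per gene, column centring, a trended prior, scanner values as filed and leaving out each sample.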

Additional observations from a re-analysis of the deposited data

How the results depend on the processing

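The count of Notch probes called (4 of 13: 1 higher, 3 lower) was the same with columns centred on their median, with the stricter filter, with a trended and robust prior and with the brightest probe or the mean per gene. It was 2 without the filter (1 higher, 1 lower), and 1 (0 higher, 1 lower) with the replicate block, which left Nrarp alone, and with the block and 1 probe per gene together, a setting chosen after seeing the data. Leaving out 1 sample gave 0 to 7 called (0 to 3 higher, 0 to 4 lower), 0 to 25 pathway genes called, and 1 to 16474 of all probes called (4285 with all samples), the highest each time without normal 3. The count of pathway genes called was 5, against 11 with the trended prior and 1 in the 1-probe-per-gene fit with the block; apart from leave-one-out and scanner values, other settings gave 4 to 6. All probes called were 3057 to 5465 in those settings with 1 row per probe, 2727 with the mean per gene, 3147 with the brightest probe, and 1869 with that and the block.

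The fit of scanner values as filed takes each file by its own label. The files labelled tumor 2, tumor 3, tumor 4 and normal 1 match no column of the value table. The file labelled normal 4 matches the column of tumor 2. Arrays and labels thus differ from the main fit, so the effect of processing alone cannot be read from it. Scanner values as filed gave 0 called probes in limma by either scaling, 0 Notch probes and 0 pathway genes. At an unadjusted p under 0.05 they had 632 of 32118 probes by the 75th percentile and 734 by normexp with quantile scaling, and 0 Notch probes by either. There Dll1 turned to 0.54 and 0.50, and Nrarp to 0.09 by the 75th percentile. The cause was not tested. Notch1 turned to 0.02, 0.04 and 0.09 when normal 2, normal 4 or tumor 3 was left out (-0.33 to 0.09 over the 8 fits). The other 7 Notch genes, by their brightest probe, kept their direction in every setting. Changing the filter, the prior or the block cannot alter the difference of a probe, so only the other settings could turn it. Signal limits the dim Jag1 probe, Jag2 and 1 Notch2 probe in normal 1.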

Other observations

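The 4 scanner files that match no column of the value table were used only in the fit of scanner values as filed. On a log2 scale set to 0 at the 75th percentile of each array, their mean level of 6 small intestine genes was 2.32 to 5.09, against -2.99 to -0.77 in the 4 files that match a column. Their mean of 5 distal colon genes was -3.58 to -0.64, against 3.28 to 5.33. On the same scale Nrarp was -1.54 to -0.89 in the unmatched files and -2.67 to -1.39 in the matched ones, and Dll1 was -0.17 to 0.76 against -1.49 to 0.02. Hes1 was -0.54 to -0.38 in the unmatched files and -0.31 to 0.60 in the matched ones, with no overlap, and Hey1 was -0.12 to 0.59 against -1.62 to 1.20.

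Dlk1, a non-classical relative of the Notch ligands, had 10.84, 10.89, 11.60 and 11.36 in tumors 1 to 4, against 10.98, 9.22, 7.95 and 8.89 in normals 1 to 4. Here normal 3 was the normal furthest from the tumors and normal 1 lay among them. Its difference was 1.91 ± 0.59 (SE, limma adjusted p = 0.0703), and it was called without normal 3 (1.48, adjusted p = 0.0441).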
